A study of Brassica napus with 12 samples.

Results

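The first ends of chromosomes C3 and A3 of rapeseed (Brassica napus) were followed gene by gene in immature seeds of 4 inbred lines, A28, R8Q10, SW and YH25005. The C3 segment ran from BnaC03g00020D to BnaC03g05740D and held 246 genes, and the A3 segment ran from BnaA03g00010D to BnaA03g04500D and held 248. These 494 genes were all those in the ID ranges that were listed in all 12 libraries, apart from 2 that are not reported here, out of 43708 genes listed in all libraries. The segments had been chosen by the measured levels of SW against the other lines, low on C3 and high on A3, so every value of SW against the other lines is a description without a test. The number in an ID gives the place of a gene along its chromosome in the annotation behind the files, and no coordinates are given because the genome build is not stated in the sources used here.

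The seeds had been selfed under bags on plants grown in 1 field, and all were taken 24 days after pollination, with 3 libraries per line. No line carried a transgene or treatment. The labels do not say which lines are high and which are low in linolenic acid, nor whether the replicates came from separate plants, so p-values measure the spread between these libraries only. The labels name seeds and the extraction protocol names embryos, and no table used here names the IDs of seed marker genes, so the tissue was not checked against markers. Fewer cells of a type and less RNA per cell cannot be told apart in such bulk samples.

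Rapeseed carries 2 subgenomes, A from the turnip lineage and C from the cabbage lineage, and chromosomes A3 and C3 share long collinear stretches inherited from a common ancestor. Most of their genes therefore exist as homoeologues, closely similar copies that usually keep the same function. A and C chromosomes of rapeseed are known to pair at times in meiosis and to exchange segments. DNA was not measured here, so whether any line differs from the others in the copies it carries was not tested. Reads that match both copies can be placed on either, and the sources used here do not say how the counting treated them, so the level of a single copy is uncertain.

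In SW many C3 genes had few or no reads, while the A3 segment stood at about 2 times its level in the other lines. Summed over its genes, the C3 segment reached 995, 947 and 1104 CPM (counts scaled to library size, here with TMM factors) in the 3 SW libraries. In the 9 libraries of the other lines the sum lay between 4659 and 5325 CPM, with a median of 5005. No SW library came near that range, and the SW mean was 20.5% of the mean of the other lines. The A3 segment summed to 9806, 10419 and 11010 CPM in SW and to between 4457 and 5990 CPM elsewhere, with a median of 5153. The SW mean was 2.02 times that of the other lines.

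Added up, both segments gave 10801, 11366 and 12114 CPM in SW and 9303 to 11262 CPM in the other lines, with overlapping ranges. On library totals the 3 SW libraries, at 11386 to 12334 CPM, lay above the other 9, at 8570 to 11222 CPM. The split between the segments differed far more than their total. In SW 91.1% ± 0.484 of the combined level came from A3 (SD, n = 3). In A28 it was 51.4% ± 1.61, in YH25005 52.7% ± 0.411 and in R8Q10 48.7% ± 1.72. A single gene, BnaA03g03740D, carried much of the A3 sum in SW. Without it SW stood at 1.68 times the other lines on A3 and at 0.931 times for both segments together, against 1.13 times with it.

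**Figure D1:**
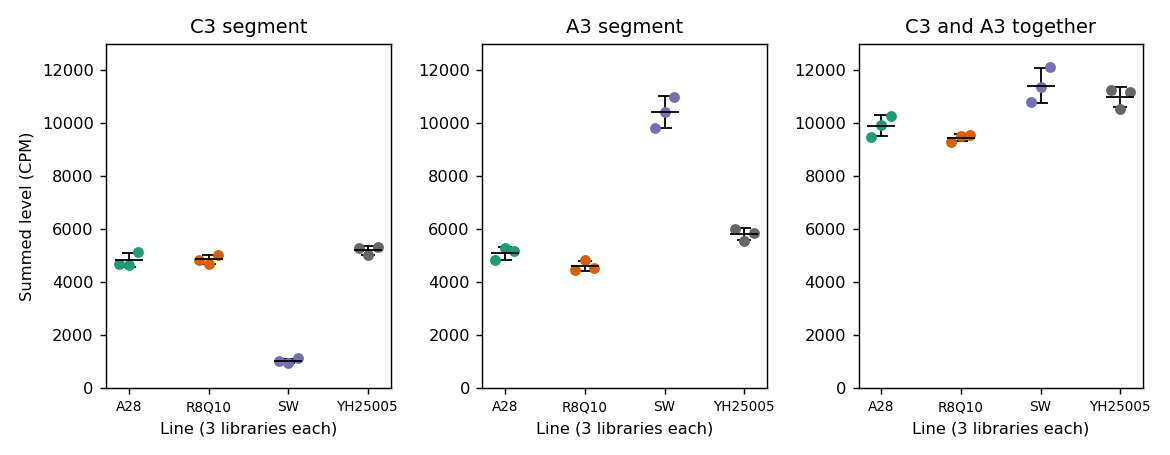
Summed level of the segment genes in each library (TMM-scaled CPM, axis from 0), with points for the 3 libraries of each line and bars for mean and SD. SW is at 947 to 1104 CPM on C3 and at 9806 to 11010 CPM on A3, while for both segments together on this TMM scaling its libraries overlap the range of the other lines.

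For each gene the SW difference was taken as the mean log2 CPM of SW minus the mean of the other 3 line means. Its median was -4.23 over the C3 genes (quartiles -6.55 and -2.01) and 0.85 over the A3 genes (quartiles 0.34 and 1.39), against 0.00 over all 43708 genes (quartiles -0.37 and 0.46). Against single lines the fitted median log2 fold changes of SW on C3 were -4.23 for A28, -4.33 for R8Q10 and -4.33 for YH25005, and on A3 they were 0.81, 0.90 and 0.86. These comparisons share the SW libraries. The single SW libraries also gave similar medians, between -4.32 and -4.01 on C3 and between 0.83 and 0.94 on A3.

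The C3 genes were spread widely rather than set around 1 value. Of the 246 genes, 206 were more than 2-fold lower in SW (8.79% of all genes were), among them 107 with a difference below -5, 50 between -5 and -3 and 49 between -3 and -1. In 63 genes no read was counted in any SW library, against 0.929% of all genes, and 72 had at most 3 counts in the 3 libraries together, against 1.11%. In 192 genes all 3 SW libraries lay below all 9 others, where the background was 5.15%. As the segment was chosen for these values, nothing is read from the contrast with the background. The 206 low genes together kept 433 CPM ± 44.6 in SW (SD, n = 3), 9.82% of the mean of the other lines.

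The A3 genes formed a narrower group. SW was higher in 214 of 248 genes (background 50.1%), by a difference between 0.5 and 1.5 in 125 of them and above 1.5 in 49. All 3 SW libraries lay above the other 9 in 88 genes, against 4.99% of all genes.

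**Figure D2:**
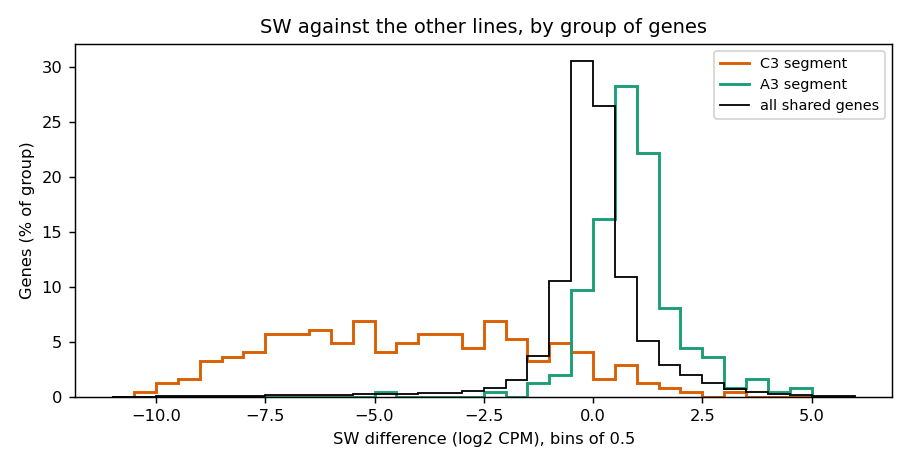
Share of genes (percent of each group) by SW difference (log2 CPM, bins of 0.5) for the C3 segment, the A3 segment and all genes listed in all libraries. The C3 genes spread from -10.1 to 3.39 around a median of -4.23, and the A3 genes lie to the right of all genes with a median of 0.85.

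Along the gene order the low part of C3 in SW had 2 stretches with an interval between them. Stretches were read from a running median over 21 neighbouring genes with a threshold of -1 on C3 and 0.5 on A3. The first low stretch reached to BnaC03g03880D, covering 169 segment genes with a median of -4.74, and 152 of them were more than 2-fold lower. The second ran from BnaC03g04530D to BnaC03g05740D, with 60 genes, a median of -4.16 and 52 genes more than 2-fold lower. The 17 genes between, BnaC03g03920D to BnaC03g04520D, had a median of 0.55.

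The summed levels of the C3 stretches were compared by library. In the first stretch SW held 566 to 678 CPM and the other lines 3140 to 4084 CPM. In the second SW held 211 to 269 CPM and the others 1045 to 1475 CPM. In the interval SW held 158 to 170 CPM, inside the range of 144 to 232 CPM in the others. Taken singly, the SW libraries placed the end of the first stretch at BnaC03g03880D (replicates 1 and 3) or BnaC03g03920D (replicate 2), and the outer end at BnaC03g05740D (replicates 1 and 2) or BnaC03g05780D (replicate 3).

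At the outer edge on C3 the last 3 genes inside the segment were low in SW. BnaC03g05700D stood at 5.31, 4.70 and 3.72 CPM in SW against 20.9 to 75.9 CPM in the other lines, with a median of 36.4. BnaC03g05720D stood at 0.964, 0.419 and 0.384 CPM against 11.2 to 14.8 CPM. BnaC03g05740D had 0 counts in SW and 15.5 to 24.4 CPM elsewhere, so that it was at least 609-fold lower in SW than in any other line (bound from 3 counts over the 3 SW libraries, on library totals).

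Just outside, the next genes overlapped the other lines in every case. BnaC03g05770D was at 2.89, 5.63 and 4.08 CPM in SW and at 0.921 to 7.62 CPM elsewhere. BnaC03g05780D was at 31.9, 39.2 and 39.8 CPM against 18.7 to 52.5 CPM, and BnaC03g05790D at 69.8, 77.9 and 48.0 CPM against 26.5 to 111 CPM. Over the 100 genes after the segment the median difference was 0.06, with 8 genes more than 2-fold lower. Inside the segment the last 3 genes had differences of -3.09, -4.44 and -8.43, and the first 3 beyond it 0.61, 0.22 and 0.15.

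**Figure D3:**
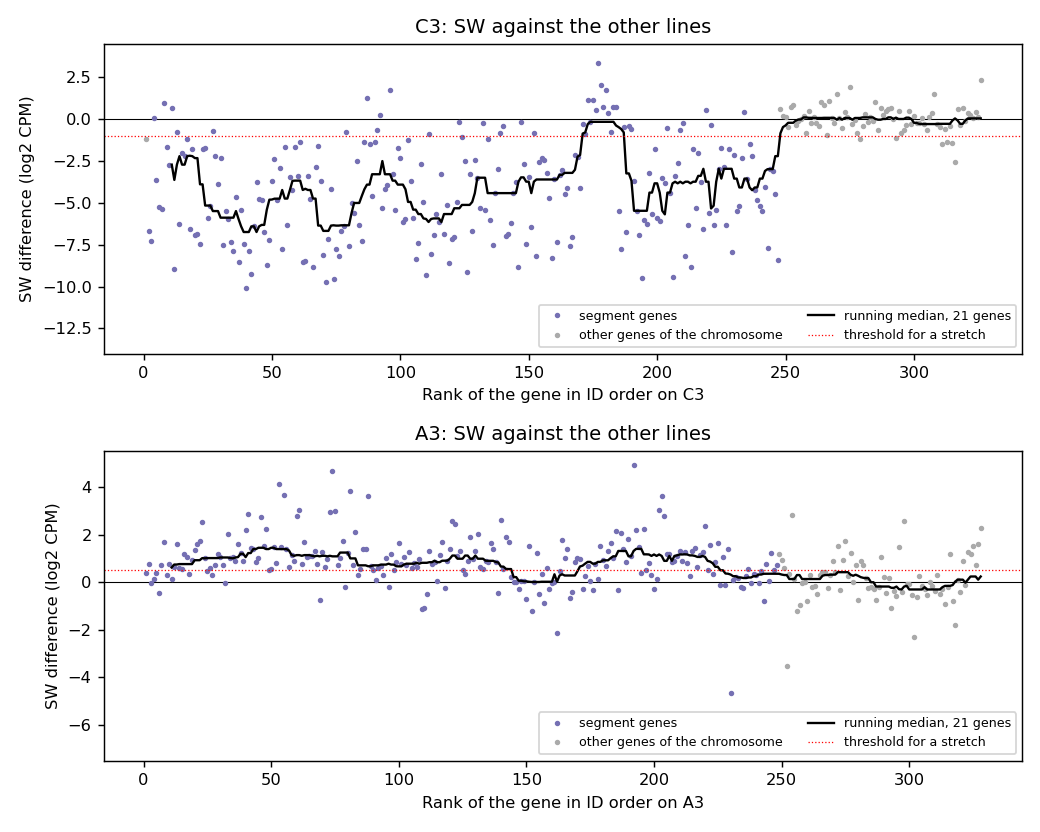
SW difference (log2 CPM) of each gene against its rank in ID order on C3 (above) and A3 (below), with the 21-gene running median and the threshold for a stretch. On C3 the running median is below -1 except in the interval before BnaC03g04530D and returns to about 0 past BnaC03g05740D, and on A3 it is raised up to BnaA03g02730D and again up to BnaA03g04140D.

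On A3 the higher level also came in 2 stretches, read with the A3 threshold. The first went from the start to BnaA03g02730D, with 144 genes, a median of 0.97 and 133 genes above 0. The second went from BnaA03g03170D to BnaA03g04140D, with 55 genes, a median of 1.01 and 51 above 0. Between them 26 genes, BnaA03g02740D to BnaA03g03160D, had a median of 0.01, with 15 above 0 and 11 below. SW replicate 2 alone put the end of the first stretch at BnaA03g01900D, while replicates 1 and 3 put it at BnaA03g02730D and BnaA03g02660D.

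By library, the first A3 stretch summed to 4295 to 4491 CPM in SW and to 1946 to 2623 CPM in the other lines. The second summed to 3571 to 4884 CPM against 1160 to 1336 CPM. Of the second sum, BnaA03g03740D alone gave 1840, 2360 and 2770 CPM in SW and 223 to 399 CPM elsewhere. In the interval the ranges overlapped, 1071 to 1229 CPM in SW and 912 to 1453 CPM elsewhere. The 23 genes past the second stretch, BnaA03g04170D to BnaA03g04500D, lie inside the segment by the ID range but had a median of 0.20.

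At the A3 end the genes on both sides of the limit were higher in SW on average. The last 3 inside had differences of 1.24 (BnaA03g04460D), 0.51 (BnaA03g04490D) and 0.71 (BnaA03g04500D), and the first 3 outside 1.18 (BnaA03g04510D), 0.93 (BnaA03g04520D) and 0.59 (BnaA03g04530D). BnaA03g04500D stood at 24.3, 20.9 and 27.4 CPM in SW and at 7.25 to 27.1 CPM elsewhere, so its ranges overlapped. BnaA03g04510D, outside, overlapped likewise with 10.8, 9.43 and 21.2 CPM against 2.85 to 12.3 CPM. All the other genes named here overlapped too. BnaA03g04460D, for example, was at 9.14, 7.51 and 16.8 CPM in SW against 1.21 to 24.5 CPM elsewhere. Over the next 100 genes the median was -0.06.

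Median levels by line were also read along the order. In bins of 500 ID numbers the median log2 CPM of the C3 genes in A28 ran from 2.22 to 4.20 over the bins up to BnaC03g05490D, and in YH25005 from 1.91 to 4.15. In SW it was at most 0.54 in 10 of these 11 bins, lowest at -3.58 in the bin from BnaC03g00500D, where A28, R8Q10 and YH25005 were at 3.19, 3.24 and 2.96. In the bin from BnaC03g04000D SW was at 2.61, against 2.22, 0.69 and 1.91. On A3 the SW median was the highest of the 4 lines in 8 of the 9 bins up to BnaA03g04490D, for example 4.74 in the bin from BnaA03g01000D against 3.51 in A28, 2.90 in R8Q10 and 3.83 in YH25005. The exception was the bin from BnaA03g02500D, where SW was at 4.68 and YH25005 at 4.70.

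**Figure D4:**
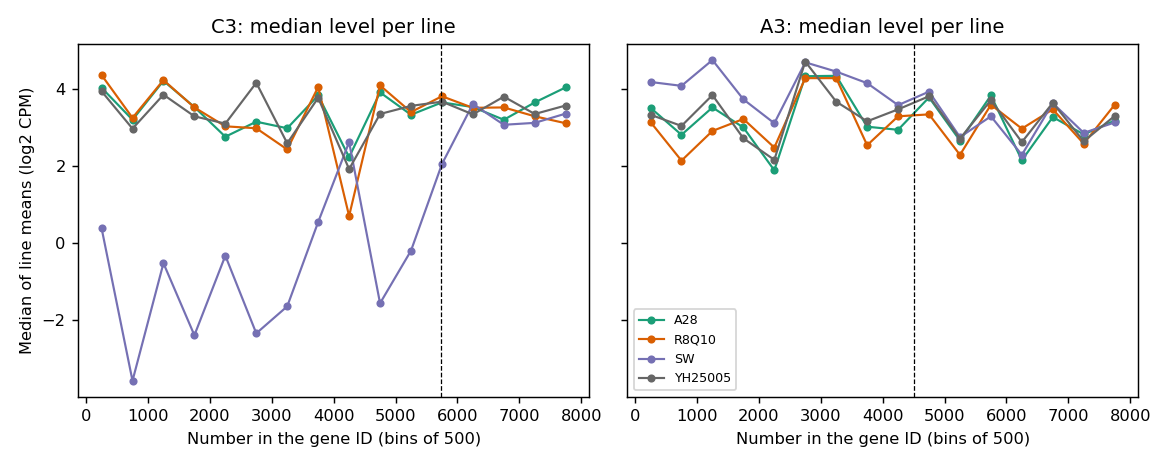
Median over genes of the line means (log2 CPM) in bins of 500 ID numbers along C3 (left) and A3 (right), 1 curve per line, with the end of each segment dashed. On C3 the SW curve lies below the other lines up to the dashed line except in the bin from BnaC03g04000D, where it is at 2.61, and on A3 it lies above them or level with the highest.

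Among the 8 C3 genes with the highest mean CPM outside SW, the level left in SW differed from gene to gene. CPM grow with transcript length, so levels are not compared between genes. BnaC03g03860D kept 45.5, 34.9 and 28.6 CPM in SW against 131 to 268 CPM elsewhere (difference -2.23). BnaC03g05240D kept 31.3, 61.2 and 58.2 CPM against 94.4 to 240 CPM (-1.72). BnaC03g02050D, with 36.8, 31.8 and 56.6 CPM, was the only one of the 8 to overlap the other lines (53.5 to 236 CPM, difference -1.46).

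In the next genes less was left. BnaC03g03720D was at 12.4, 10.2 and 11.7 CPM in SW against 62.6 to 141 CPM (-3.32). BnaC03g01160D was at 9.39, 6.79 and 7.06 CPM against 72.0 to 131 CPM (-3.68). All 3 SW libraries of both genes lay far below the lowest other library.

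The remaining genes of the 8 were almost without reads in SW. BnaC03g03000D had 28 counts in the 3 SW libraries and stood at 38.5 to 190 CPM elsewhere (-9.12). BnaC03g02560D had 7 counts and stood at 37.9 to 92.4 CPM elsewhere (-9.29). BnaC03g02910D had 14 counts, but its other libraries ranged from 0.572 to 246 CPM, with 113 to 246 CPM in YH25005 and 0.572 to 34.5 CPM in A28 and R8Q10 (difference -7.06). The lowest difference on C3, picked after its value was seen, was -10.1 in BnaC03g00960D, with 0 counts in SW and 44.6 to 82.0 CPM elsewhere.

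On A3 the 8 genes with the highest mean CPM outside SW included some that were not higher. BnaA03g03740D stood far above its other libraries, at 1840, 2360 and 2770 CPM in SW against 223 to 399 CPM (difference 2.79). BnaA03g03450D was at 313, 321 and 430 CPM against 65.9 to 135 CPM (2.08). In both genes the ranges were well apart. BnaA03g02010D was at 191, 162 and 148 CPM against 61.5 to 161 CPM (0.64), and BnaA03g03240D at 170, 170 and 119 CPM against 46.5 to 151 CPM (0.78). BnaA03g04440D was at 235, 281 and 192 CPM against 49.1 to 282 CPM (0.76). These 3 overlapped the other lines.

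The last 3 of the 8 lie in the A3 interval that was not raised. BnaA03g02870D was at 262, 289 and 170 CPM in SW against 125 to 478 CPM (difference 0.02). BnaA03g02830D was at 165, 179 and 86.2 CPM against 51.4 to 299 CPM (0.04), and BnaA03g03140D at 93.9, 39.4 and 55.4 CPM against 63.5 to 123 CPM (-0.43). All 3 overlapped the other lines, and YH25005 held the top of the range in the first 2. The highest difference on A3, picked after its value was seen, was 4.92 in BnaA03g03540D, at 78.2, 121 and 137 CPM in SW and at 1.29 to 16.6 CPM elsewhere.

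On C3, 40 genes were not 2-fold lower in SW. Together they gave 588, 539 and 620 CPM in SW and 501 to 608 CPM in the other lines, so that 56.1% to 59.1% of the C3 level left in SW came from them, against 10.1% to 11.9% elsewhere. Of the 40, 14 adjacent genes from BnaC03g03920D to BnaC03g04410D formed 1 group inside the interval, 18 stood alone between low neighbours, and the other 8 were in 4 adjacent pairs. Adjacent here means next to each other among the segment genes. BnaC03g04000D, BnaC03g04130D, BnaC03g04250D and BnaC03g04400D, within the IDs of the group, were listed only for A28 and R8Q10. All 3 SW libraries fell inside the range of the other 9 in 15 of the 40, above it in 4 and below it in 1, BnaC03g03570D. In the other lines these 40 genes had a median FPKM (a level per transcript length, as deposited) of 6.56, against 7.84 for the 206 low genes and 5.91 for all genes. The length given by the ratio of counts to FPKM had a median of 1360 bases, against 1610 bases for the low genes and 1530 for all.

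Of the 10 of these genes with the highest mean CPM outside SW, 4 in the first stretch were on average at or above the other lines. BnaC03g00110D was at 87.0, 87.5 and 72.7 CPM in SW, above all 9 other libraries (13.2 to 69.1 CPM). BnaC03g00160D, at 61.3, 51.5 and 103 CPM, overlapped them (17.8 to 67.7 CPM), as did BnaC03g00060D, at 18.6, 21.1 and 24.8 CPM (9.97 to 38.3 CPM). The genes right before BnaC03g00060D, BnaC03g00020D and BnaC03g00040D, had 0 counts in SW. Further along, BnaC03g01980D was at 82.6, 67.8 and 81.7 CPM against 11.1 to 73.0 CPM, overlapping them too.

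Other genes of the 10 were on average lower in SW. BnaC03g00220D stood at 13.7, 9.13 and 13.0 CPM in SW against 7.24 to 119 CPM elsewhere, BnaC03g04890D at 21.5, 10.7 and 21.3 CPM against 7.51 to 56.5 CPM, and BnaC03g05020D at 15.7, 10.3 and 27.0 CPM against 13.1 to 52.8 CPM. All 3 overlapped the other lines.

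In the interval BnaC03g03940D was at 14.8, 12.03 and 13.4 CPM in SW against 14.8 to 29.6 CPM, with 2 SW libraries below all others. BnaC03g03990D was at 13.9, 10.2 and 22.3 CPM against 2.62 to 91.6 CPM, and BnaC03g04340D at 35.2, 24.1 and 23.8 CPM against 13.4 to 34.0 CPM. BnaC03g04190D was above all 9 other libraries in SW, at 25.7, 35.8 and 18.1 CPM against 0.079 to 14.9 CPM. So was BnaC03g04330D, named after its values were seen, at 8.04, 8.44 and 8.13 CPM against 1.303 to 4.93 CPM. The interval also held 2 low genes at its far end, BnaC03g04490D with 3 SW counts and BnaC03g04500D with 1.

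On A3, 34 genes were lower in SW and 5 of these by more than 2-fold. BnaA03g03040D, in the interval, was the only A3 gene with all 3 SW libraries below the other 9, at 1.65, 1.59 and 2.69 CPM against 5.25 to 12.4 CPM. BnaA03g04230D was at 1.07, 1.26 and 0.00 CPM in SW and at 0.794 to 1.94 CPM in A28, but at 19.9 to 46.0 CPM in R8Q10 and YH25005. SW and A28 thus overlapped there. BnaA03g02060D (20.7, 8.17 and 4.34 CPM against 7.65 to 60.9 CPM), its neighbour BnaA03g02070D (2.40, 0.239 and 3.31 CPM against 0.270 to 8.85 CPM) and BnaA03g02860D (0.578, 0.688 and 0.621 CPM against 0.381 to 3.34 CPM) overlapped the other lines.

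The way genes entered the files bears on these counts. The files come as 2 lists, one for A28 and R8Q10 and one for SW and YH25005. Every listed gene, 47207 in the first and 46839 in the second, was above 1 CPM (on library totals) in 3 or more of 6 libraries. Of the 246 C3 genes, 122 were above 1 CPM in no SW library and passed through YH25005 alone, so a C3 gene at or below 1 CPM in both lines could not be a member. Of 289 C3 IDs of the range in either list, 38 (13.1%) were only in the list of A28 and R8Q10, against 6.95% of all listed genes, and 5 (1.73%) only in that of SW and YH25005, against 6.22%. On A3 the numbers were 10 (3.70%) and 12 (4.44%) of 270. Among the 5, BnaC03g02130D and BnaC03g02520D had 0 counts in SW and BnaC03g02710D had 4. BnaC03g04090D, which lies in the interval, was at 2.33, 1.41 and 2.02 CPM on library totals in SW and 1.79, 2.80 and 2.49 CPM in YH25005. BnaC03g01990D, which lies in the first stretch, was at 0.118, 2.22 and 1.08 CPM in SW and 1.64, 1.67 and 2.18 CPM in YH25005.

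With SW set aside, A28, R8Q10 and YH25005 were compared along the same order. The running median of a line against the other two stayed between -0.39 and 0.49 over the C3 genes. On A3 it stayed between -0.53 and 0.82, with the top value in YH25005 at BnaA03g01120D. The segments had not been chosen by these differences, so they were tested. Membership was not free of YH25005, however, since 122 of the 246 C3 genes had passed the level filter through that line alone. Counts of C3 genes against YH25005 are therefore given as a description, with nothing read from their share or their lean. The same holds for A3 genes against YH25005, since those low in YH25005 could enter the list of SW and YH25005 through SW. The list of A28 and R8Q10 followed the same level. A gene above 1 CPM in no library of A28 could enter it only through R8Q10, and the reverse. Calls between A28 and R8Q10 for such genes are a description too.

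**Figure D5:**
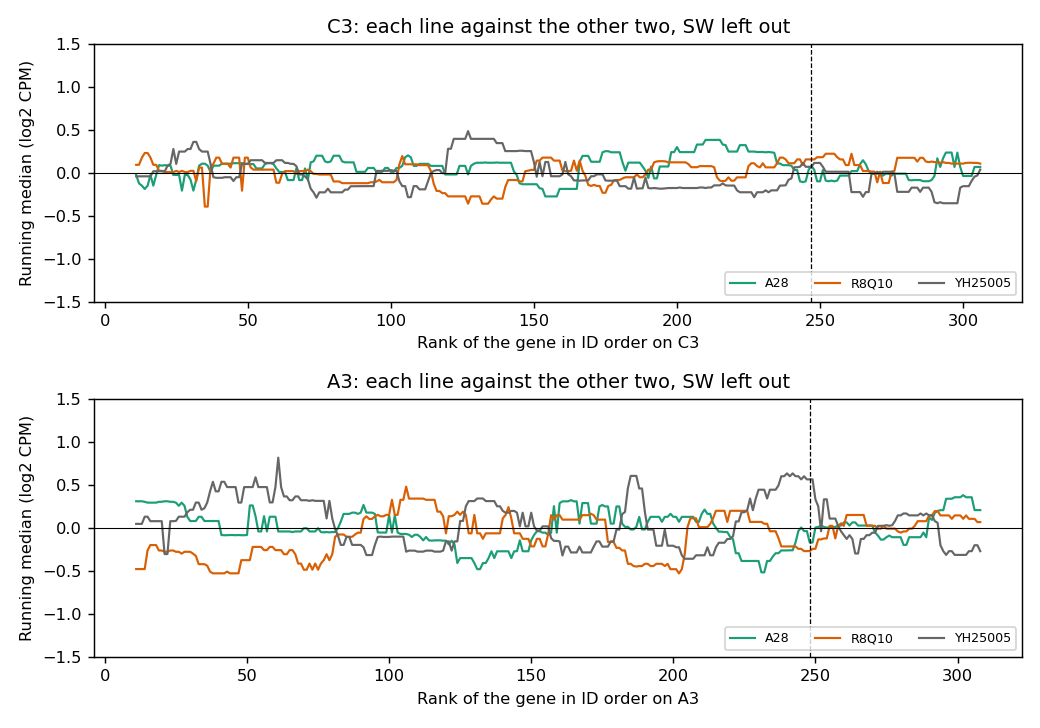
Running median over 21 genes of each line minus the mean of the other two (log2 CPM), with SW left out, against gene rank on C3 (above) and A3 (below), the segment end dashed. The curves stay between -0.39 and 0.49 on C3 and between -0.53 and 0.82 on A3 inside the segments.

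On C3, 25 of 246 genes differed between A28 and R8Q10, 12 higher and 13 lower in A28, where 21.7% of all genes did, 12% higher and 9.63% lower (edgeR quasi-likelihood test, Benjamini-Hochberg adjusted p at 0.05 over all 43708 genes). Between A28 and YH25005 43 differed, 22 higher and 21 lower in A28 (background 27.2%, with 14.5% higher and 12.7% lower). Between R8Q10 and YH25005 33 differed, 11 higher and 22 lower in R8Q10 (background 23.4%, with 10.7% higher and 12.7% lower). By passage, 19 of the 122 C3 genes that had passed through YH25005 alone differed between A28 and YH25005 (10 higher and 9 lower in A28) and 24 of the other 124 (12 higher and 12 lower). Between R8Q10 and YH25005 it was 14 of the 122 (6 higher and 8 lower in R8Q10) and 19 of the 124 (5 higher and 14 lower). The C3 percentages were 10.2, 17.5 and 13.4, and the median log2 fold changes were 0.09, 0.06 and 0.08, against 0.06, 0.06 and 0.02 over all genes. The counts moved with single libraries and scalings, and so did the share of all genes called. For A28 and R8Q10, 15 were called without R8Q10 replicate 1 (16.3% of all genes) and 16 without R8Q10 replicate 3 (16.5%). For A28 and YH25005 it was 66 without A28 replicate 2 (36.4%), and 20 without YH25005 replicate 1 (17.1%) or replicate 3 (17.3%). For R8Q10 and YH25005 it was 50 without A28 replicate 2 (28.6%), 13 without R8Q10 replicate 1 (15.2%) and 18 without its replicate 3 (14.7%). Leaving out YH25005 replicate 1 gave 13 (14.2%), and leaving out replicate 3 of that line gave 14 (14.4%). On library totals the contrasts with YH25005 gave 66 higher and 13 lower in A28, and 48 higher and 11 lower in R8Q10, with 38.8% and 33.4% of all genes called, and on that scaling the median log2 fold change of all genes was 0.47 and 0.43.

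On A3, 54 of 248 genes differed between A28 and R8Q10 (32 higher and 22 lower in A28, 21.8% against a background of 21.7%). Between A28 and YH25005 81 differed (35 higher and 46 lower in A28, 32.7% against 27.2%), and between R8Q10 and YH25005 81 (32 higher and 49 lower in R8Q10, 32.7% against 23.4%; same edgeR test and adjustment). Of the 248 genes, 243 were above 1 CPM in all 3 SW libraries and 221 in all 3 YH25005 libraries. Genes low in YH25005 could thus be members through SW, where the segment was chosen to be high, and their calls were not counted apart. Nothing is therefore read from the A3 shares against YH25005. Without YH25005 replicate 3 the count for A28 and YH25005 was 52, where 17.3% of all genes were called. On library totals the splits became 71 higher and 24 lower in A28, and 53 higher and 32 lower in R8Q10, so neither direction held.

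The summed levels of the 3 lines were tested by exact permutation of the 9 libraries, with the sum of squares between lines as the statistic and no use of replicate numbers (280 ways to split them, smallest possible p 0.00357, 5 tests in the family). The A3 sum differed, with 5088 CPM ± 245 in A28, 4603 ± 190 in R8Q10 and 5802 ± 224 in YH25005 (SD, n = 3; exact p = 0.00714, adjusted 0.0357). On library totals YH25005 was the lowest instead, and the difference did not pass (exact p = 0.121, adjusted 0.132). The C3 sums of 4818 CPM ± 266, 4852 ± 160 and 5201 ± 172 did not pass the test (exact p = 0.132, adjusted 0.132). With RLE factors, where YH25005 was again highest (4753, 4851 and 5209 CPM in the same order of lines), the exact p was 0.0321, and without A28 replicate 3 it was 0.0286, both unadjusted. On library totals, with YH25005 lowest, they passed (exact p = 0.0179, adjusted 0.0447). The C3 sum, too, holds genes that were members through YH25005 alone, and the A3 sum holds genes that were members through SW alone. The A3 part of the combined level, which needs no scaling, did not pass (exact p = 0.0571, adjusted 0.0952), though it reached 0.0214 without A28 replicate 2 and 0.0143 without R8Q10 replicate 2.

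Single genes of the segments differed strongly between the 3 lines, and the 3 with the largest change in each contrast and segment were taken. BnaA03g00930D had 0 counts in A28 and stood at 9.38, 8.44 and 10.2 CPM in R8Q10, at least 342-fold higher (edgeR adjusted p = 4.54e-05), while YH25005 was at 0.350, 0.619 and 0.120 CPM and differed from A28 too (adjusted p = 0.00427). BnaA03g01470D had 0 counts in R8Q10, against 1.98, 1.85 and 3.84 CPM in A28, at least 95.8-fold higher (adjusted p = 5.26e-06), and 13.2, 11.2 and 14.9 CPM in YH25005, at least 377-fold higher (adjusted p = 1.18e-06). BnaA03g01380D had 0 counts in YH25005, against 1.96, 2.09 and 3.81 CPM in A28 and 7.32, 7.02 and 7.82 CPM in R8Q10, at least 96.0-fold and 280-fold higher (adjusted p = 1.67e-05 and 3.40e-06). Each of the 3 lines thus had an A3 gene without a read where the other lines had some. Bounds are on library totals with 3 counts over the line. BnaA03g00930D entered the list of A28 and R8Q10 through R8Q10 alone, and BnaA03g01470D through A28 alone. Their calls between A28 and R8Q10 are therefore a description. BnaA03g00930D and BnaA03g01380D were above 1 CPM in no YH25005 library and entered the list of SW and YH25005 through SW alone. Calls of these genes against YH25005 are a description too.

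BnaA03g00220D was high in A28 alone among the 3 lines, at 64.9, 74.8 and 105 CPM, with 2.53, 0.788 and 0.703 CPM in R8Q10 (log2 fold change 5.92 ± 0.825 SE, edgeR adjusted p = 0.000318) and 1.40, 0.563 and 1.64 CPM in YH25005 (6.10 ± 0.839 SE, adjusted p = 0.00039). R8Q10 was above 1 CPM in replicate 1 alone, so BnaA03g00220D could enter the list of A28 and R8Q10 only with A28 libraries. Its calls for A28 are therefore a description. BnaA03g01080D was low in R8Q10, at 0.316, 0.495 and 0.234 CPM, against 21.01, 12.6 and 14.3 CPM in YH25005 (-5.48 ± 0.349 SE, adjusted p = 9.72e-07). A28 was near YH25005 for that gene, at 11.4, 16.1 and 13.7 CPM. SW held 35.9, 31.3 and 23.7 CPM of it, above every other library.

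On C3, BnaC03g00680D was nearly absent from R8Q10, with 0, 0.0900 and 0 CPM, and present at 3.47, 3.79 and 4.26 CPM in A28 (log2 fold change of A28 over R8Q10 6.70 ± 0.928 SE, edgeR adjusted p = 0.000305) and 6.46, 4.70 and 6.49 CPM in YH25005 (R8Q10 lower, -7.32 ± 0.939 SE, adjusted p = 0.00021). SW had 4 counts of it, so SW and R8Q10 were low alike. With both below 1 CPM it could be listed only through A28 in one list and YH25005 in the other. Its differences from R8Q10 are therefore a description of a gene that the filter let in for being present there. BnaC03g04230D, in the interval, was at 41.6, 71.6 and 37.0 CPM in A28 and at 0.764, 0.450 and 0.410 CPM in R8Q10 (6.52 ± 0.914 SE, adjusted p = 0.000333). YH25005 was low too, at 2.18, 0.676 and 0 CPM, and SW lay between at 10.5, 10.7 and 7.71 CPM. This gene entered the list of A28 and R8Q10 through A28 alone, so its call between them is a description. BnaC03g04190D, also in the interval, was lower in R8Q10, at 0.0790, 0.473 and 0.205 CPM, than in YH25005, at 14.9, 10.6 and 9.02 CPM (-5.46 ± 0.767 SE, adjusted p = 0.000419).

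The other 3 C3 genes were highest in YH25005. As for BnaC03g00680D, SW was below 1 CPM, so they could be members only through YH25005. Their differences from that line are a description of genes that the filter let in for being present there. BnaC03g00100D was at 49.0, 24.0 and 44.1 CPM there and at 0, 0.883 and 0.0953 CPM in A28 (log2 fold change of A28 over YH25005 -6.94 ± 1.16 SE, edgeR adjusted p = 0.00141). R8Q10, at 5.77, 15.2 and 4.22 CPM, was also above A28 (-4.72 ± 1.07 SE, adjusted p = 0.00846), a call lost when only these lines were fitted (adjusted p = 0.0588). That call is a description too, since the gene entered the list of A28 and R8Q10 through R8Q10 alone. BnaC03g02910D was at 240, 113 and 246 CPM in YH25005 and at 1.85, 7.80 and 0.572 CPM in A28 (-5.88 ± 1.01 SE, adjusted p = 0.00171). BnaC03g02840D was at 113, 58.9 and 81.2 CPM in YH25005, with 0.245, 4.06 and 0.191 CPM in A28 (-5.82 ± 1.22 SE, adjusted p = 0.00798) and 5.74, 12.4 and 1.76 CPM in R8Q10 (-3.66 ± 1.09 SE, adjusted p = 0.0395). The last call was lost in each of 5 omissions of an R8Q10 or YH25005 library. In all of these genes SW was at or near 0, with 6, 14 and 0 counts.

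Some genes with IDs outside the ranges lie among the A3 segment genes in another assembly. The RefSeq annotation of the Da-Ae assembly uses the ID of 11 C3 and 11 A3 segment genes as a symbol. All 11 C3 genes and 10 of the 11 A3 genes lie on the chromosome their ID names, in the order of their IDs. Among the A3 genes that assembly places 4 genes with IDs between BnaA03g55340D and BnaA03g55510D. The 9 genes of this ID block had not been used to choose the segments. Their median SW difference was 0.59, with 8 above 0, where 50.1% of all genes were. The 4 genes that the assembly places there had differences of 0.64, 0.59, 0.02 and -0.44. By edgeR's test (adjusted p at 0.05 over all genes), 2 were higher in SW than in A28 (of all genes 7.9% were higher and 7.5% lower). Against R8Q10 1 was higher (12.4% of all higher and 11.2% lower), and against YH25005 3 were higher (13.6%) and 1 lower (13.1%). Among the 4 genes that the assembly places there, 2 were higher in SW than in A28 and 1 was lower than in YH25005, so the higher calls against R8Q10 and YH25005 came from genes it does not place. BnaA03g55360D and BnaA03g55490D were above 1 CPM in no YH25005 library and entered the list of SW and YH25005 through SW alone. Their higher calls, against YH25005 for both and against R8Q10 for BnaA03g55490D, are therefore a description. Both also count among the 8 above 0.

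Named after their values were seen, 3 of the 9 serve as examples. BnaA03g55340D was at 22.5, 24.7 and 49.5 CPM in SW against 13.3, 9.27 and 11.4 CPM in A28 (log2 fold change 1.51, edgeR adjusted p = 0.00419). R8Q10 at 26.7, 21.5 and 20.2 CPM and YH25005 at 27.6, 28.2 and 30.6 CPM overlapped SW (adjusted p = 0.242 and 0.715). BnaA03g55410D, with 84.2, 87.1 and 95.0 CPM in SW, differed by 0.16 from A28 and by 0.45 from YH25005 without passing the test (adjusted p = 0.674 and 0.109). BnaA03g55510D, at 4.76, 7.24 and 0.827 CPM in SW, was above A28 at 0.178 to 0.265 CPM (log2 fold change 4.26, adjusted p = 0.00836 by edgeR) and below YH25005 at 62.0 to 125 CPM (-4.60, adjusted p = 0.00206). No gene of the block passed against all 3 lines in the higher direction.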

How the data were processed

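Poly-A RNA of 12 seed libraries was sequenced as read pairs with a kit whose protocol mentions no strand, per the labels' protocols, so antisense and overlapping genes cannot be told apart. Of tools, bcl2fastq, HISAT2 and DESeq2 are listed without role or version, per the submitters' processing notes. The build and the counting program were not given in the sources used here. The counts deposited by the authors were analysed. Their deposited FPKM column was used to describe level per length and transcript length only. Totals over all listed genes, 30150457 to 40762254 counts, were the library sizes. A count of 0 allows up to 3 counts, 0.0736 to 0.0995 CPM, counting error only.

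Genes in all 12 libraries (43708) were fitted with edgeR 4.0.16 in R 4.3.3 (TMM, quasi-likelihood, 1 coefficient per line, filterByExpr, which removed 0 genes, Benjamini-Hochberg). TMM factors ran from 0.766 to 1.14 and were below 1 in all YH25005 libraries. Log2 CPM used a prior count of 2. SE were taken as the log2 fold change over the root of F. Stretches used full windows of 21 genes up to ID number 6000, kept with at least 20 windows. DESeq2 1.42.0 was an alternative. The fit and the stretch search were tested on simulated data.

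Genes were named by a fixed rule: the 8 highest by mean CPM outside SW on each segment, the 10 highest C3 genes not 2-fold lower, the 5 highest A3 genes 2-fold lower, 3 genes on each side of each outer end, and the 3 largest non-overlapping called changes per contrast and segment. Its part on named or paired homoeologues gave none. Members, lists and rule were chosen with earlier results of these data known. By the correlation of deviations from line means, the replicate numbers 2 and 3 paired A28 with R8Q10 (0.624 and 0.469), which no label explains. Number 1 gave 0.12, above 0.1 but below the 0.237 of A28 replicate 1 with R8Q10 replicate 3. No other combination of lines had all 3 above 0.1: of all 18 same-numbered pairs of libraries, 8 did (range -0.349 to 0.624).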

Additional observations from a re-analysis of the deposited data

How the results depend on the processing

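In the counts of called genes between lines without SW, the fit of only the lines compared gave 12, 26 and 79 on C3 for A28 minus R8Q10, A28 minus YH25005 and R8Q10 minus YH25005, against 25, 43 and 33, and DESeq2 gave 42, 70 and 56. The share of all genes called moved likewise, to 14.2%, 18.1% and 31.5% and to 27.5%, 34.8% and 31.2%. On library totals the contrasts with YH25005 gave 79 and 59 on C3. With the replicate block the counts were 28, 48 and 35 on C3 and 57, 92 and 90 on A3. For A28 and R8Q10, the lines whose replicate numbers 2 and 3 paired, a blocked fit of these lines only gave 34 on C3 and 54 on A3 (20.9% of all genes). The block changed no call of a named gene. Leaving out 1 library each gave 15 to 37, 20 to 66 and 13 to 50 on C3 and 43 to 61, 52 to 101 and 58 to 93 on A3. The cause of these moves was not tested, apart from scaling, which moved all genes.

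The C3 median of the SW difference was -4.60 with a prior count of 0.5, -3.89 with 5 and -4.58 without the interval genes, and the A3 median 0.90 on library totals. Without 1 SW library each they ran from -4.37 to -4.24 and from 0.83 to 0.85. The count of lower C3 genes was 204 to 206 and of higher A3 genes 211 to 215 in these omissions. In gene ranks, the first C3 stretch ended at 170, at 173 with windows of 31 genes and at 172 with a threshold of -0.5. The outer A3 end was at rank 225, at 227 on library totals, with RLE factors or with a prior count of 0.5, at 232 with a threshold of 0.25, at 223 with 0.75 and at 225 to 228 without 1 SW library. In the same omissions the first A3 end ranged from 141 to 144 and the C3 ends from 170 to 170 and 247 to 248. With windows of 31 genes the first A3 end was at 145 and the outer C3 end at 246. With a threshold of 0.75 or windows of 11 genes the first full A3 window did not pass, so that end has no value. SW against other lines in summed CPM ran from 0.196 to 0.212 on C3, 1.96 to 2.07 on A3 and 1.10 to 1.16 for both without 1 SW library. Without BnaA03g03740D it was 1.68 on A3 and 0.931 for both.

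Among lines without SW, the exact permutation p of the C3 sum was 0.0179 on library totals and 0.0321 with RLE factors, and that of the A3 sum 0.121 on library totals. Without 1 library each the p ran from 0.0286 (A28 replicate 3) to 0.354 on C3, 0.00714 to 0.0143 on A3 and 0.0143 to 0.139 for the A3 part. The named genes kept their direction in all 343 combinations of gene, contrast and setting and their call in 337. Outer ends, sums among 3 lines, omissions of genes and the blocked fit of 2 lines were added after seeing the data. Few reads limit the C3 genes of SW: below 3 counts a difference depends on the prior count.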
